A study of Arabidopsis thaliana with 32 samples.

Results

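Endosperm and embryo of Arabidopsis thaliana seeds were compared in the seeds of 4 standard crosses, with 8 endosperm and 8 embryo libraries, which are 16 of the 32 libraries of the series. The libraries were chosen by their labels: all that name the tissue and a cross between lines with their own cytoplasm, and none from the CNS lines, in which nucleus and cytoplasm come from different accessions. Both tissues were cut out of seed sections by laser capture microdissection (LCM), and their polyadenylated RNA was sequenced. The 4 crosses were Col x Col and C24 x C24, which are selfed seeds of the accessions Col-0 and C24, and the reciprocal hybrids Col x C24 and C24 x Col, with the seed parent written first; each had 2 endosperm and 2 embryo libraries. The plants shared a growth room with a cycle of 16 h light and 8 h dark, and the labels name no mutation or transgene. Seed age or stage is not in the labels, nor is whether the 2 libraries per tissue and cross came from separate plants, so the p-values rest on the spread between these libraries, which may in part be technical.

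Both tissues go back to sperm cells from the same pollen tube. A sperm cell fuses with the egg cell and gives the embryo, and its twin fuses with the central cell, which holds a pair of maternal genomes, and gives the endosperm. The endosperm first grows as a layer of nuclei without walls, passes sugar, amino acids and minerals from the maternal plant to the embryo, and in Arabidopsis is largely consumed as the embryo grows. It is also the tissue in which imprinted genes, read mainly from the maternal or the paternal copy, are found in seeds. Around both lies the seed coat, which is maternal tissue.

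Library totals ran from 8.64 to 29.5 M counts in endosperm (M is 1e6) and from 14.6 to 33.9 M in embryo. Levels are given as counts per 1e6 (CPM) after TMM scaling. Between 17096 and 17390 genes reached 1 CPM in the endosperm libraries, against 16258 to 16775 in the embryo libraries. Reads outside annotated genes made up 5.99% to 14.3% of the counts in endosperm and 2.51% to 7.01% in embryo. On a principal component plot the first axis held 74.8% of the variance and placed the endosperm libraries between -181 and -93.9 and the embryo libraries between 129 and 192. In hybrid seeds the nuclear reads that could be assigned to an allele were 69.2% maternal in both Col x C24 endosperm libraries, and 63.4% and 64.1% maternal in the C24 x Col endosperm libraries. In embryo they were 53.7% and 53.2% maternal in Col x C24, and 48.5% maternal in both C24 x Col libraries. A pair of maternal genomes with 1 paternal genome would give 66.7% and equal genomes 50%.

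Most genes differed between the tissues. Of 20235 genes tested, 16198 (80.0%) were called at an adjusted p under 0.05, 8200 (40.5%) higher in endosperm and 7998 (39.5%) lower. With such a background a call alone says little about a gene, so a size limit was set as well. At least 4-fold differences were called for 5969 genes (29.5%), of which 3679 (18.2%) were higher in endosperm and 2290 (11.3%) lower. The 8 endosperm and the 8 embryo values did not overlap for 9622 genes (47.6%). The median log2 difference over all genes tested, endosperm minus embryo, was 0.01. In bulk tissue a lower level can mean fewer cells of a type or less RNA per cell, and these cannot be told apart.

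Each cross gave the same picture alone. Within Col x Col 11806 genes (58.3%) were called, of which 5992 (29.6%) were higher in endosperm and 5814 (28.7%) lower. Within C24 x C24 they were 11353 (56.1%), with 5846 (28.9%) higher and 5507 (27.2%) lower. Within Col x C24 12409 (61.3%) were called, 6173 (30.5%) higher and 6236 (30.8%) lower, and within C24 x Col 12818 (63.3%), 6595 (32.6%) higher and 6223 (30.8%) lower. Of the 16198 genes called over all crosses, 15217 had the same direction in all 4, and 8501 genes were called in each cross with the same direction.

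Marker genes were first set beside the tissue labels. Their lists were chosen with earlier results of these data known, and a gene read mainly in a single tissue is tested only through that tissue. The counts are therefore no independent check of the labels. All 19 tested endosperm markers were higher in endosperm, with a median log2 difference of 5.42. The other 6 (MEA, AGL62, ESF1.1, IKU2, MINI3 and EXPA2) had too few reads for the test; AGL62, MINI3, IKU2 and MEA are active in young endosperm. Of 26 tested embryo markers 23 were lower in endosperm and 2 were higher, with a median of -4.74; DRN was not tested. Summed over their list, the endosperm markers ran from 3334 to 4935 CPM in endosperm and from 354 to 558 CPM in embryo. The embryo markers summed to 170 to 405 CPM in endosperm and to 2530 to 2906 CPM in embryo. In neither list did the sums of the tissues overlap.

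**Figure D1:**
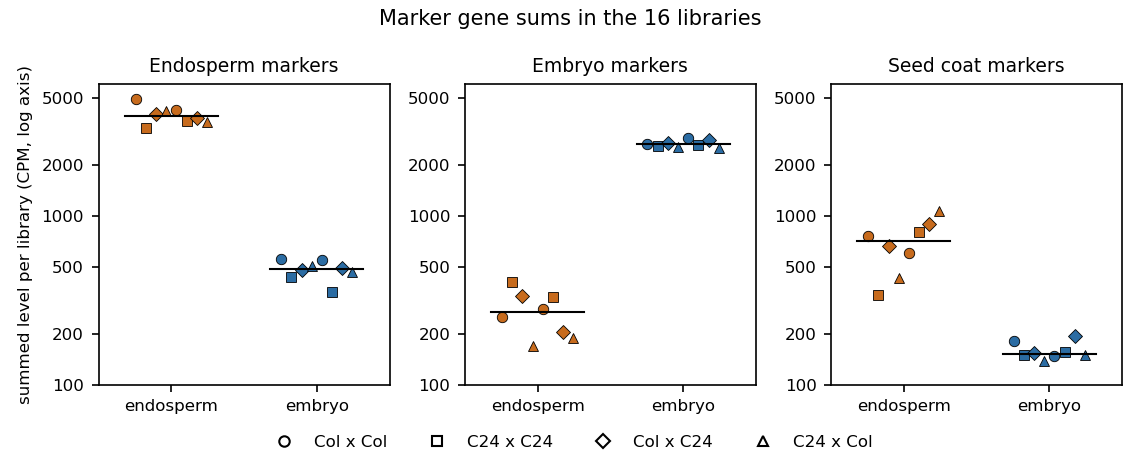
Summed level (CPM, log axis) of the endosperm, embryo and seed coat marker lists in the 8 endosperm and 8 embryo libraries; each point is a library, and its shape gives the cross. Endosperm markers lie at 3334 CPM or more in endosperm and at 558 CPM or less in embryo, and embryo markers at 405 CPM or less in endosperm and 2530 CPM or more in embryo; the seed coat sums reach 1066 CPM in endosperm and 195 CPM in embryo.

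FIS2 encodes a subunit of the Polycomb complex that restrains endosperm growth. Its level was 30.8 CPM in the lowest, 53.7 at the median and 101 in the highest endosperm library, against 0.122, 0.724 and 1.72 CPM in embryo. No embryo library came near an endosperm library, and the log2 difference was 6.17 ± 0.36 (SE; adjusted p = 9.8e-11). In hybrid endosperm 99.5% of its allele reads were maternal. The 250 bases before its annotated start are printed as an example of an endosperm promoter, because 17 of the 19 promoters of tested endosperm markers (89.5%) hold the letters TATAAA on one of the strands, against 46.2% of 20084 promoters of tested genes, 54.5% of those 4-fold or more higher in endosperm and 46.9% of those 4-fold or more lower. Capitals mark these letters, here in reverse orientation (TTTATA), 91 and 42 bases before the start (RefSeq annotation of TAIR10.1, chr2:14992315-14992564, plus strand). A match of letters is not evidence of a working element.
FIS2 promoter: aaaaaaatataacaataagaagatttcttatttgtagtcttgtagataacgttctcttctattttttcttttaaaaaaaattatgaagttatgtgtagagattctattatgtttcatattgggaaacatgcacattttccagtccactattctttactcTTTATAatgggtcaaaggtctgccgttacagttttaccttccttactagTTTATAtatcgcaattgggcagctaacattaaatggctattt

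TFL1, a mobile phosphatidylethanolamine-binding protein, had 16.0, 57.1 and 118 CPM (lowest, median and highest library) in endosperm and 0.0612, 0.760 and 1.37 CPM in embryo. HDG3, an imprinted homeodomain gene, had 686, 1037 and 1484 CPM in endosperm, against 8.50, 21.0 and 46.7 CPM in embryo, a log2 difference of 5.56 ± 0.32 (adjusted p = 8.7e-11). The related HDG9 had 199.7, 279 and 579.9 CPM in endosperm and 4.16, 5.90 and 10.3 CPM in embryo. These genes separated the tissues fully in all 16 libraries. SUC5, a sucrose transporter of the endosperm, was high in every endosperm library (334, 441 and 523 CPM) and lower but present in embryo (34.7, 42.0 and 59.1 CPM), a log2 difference of 3.26 ± 0.14 (adjusted p = 5.0e-12). The largest list values beside TFL1 were those of AT2G34890, a CTP synthase, at 6.67, and MPC, at 6.75. ICE1, which acts with ZOU in endosperm breakdown, showed the smallest difference of the list (427, 485 and 681 CPM in endosperm, 255, 309.6 and 335 CPM in embryo, log2 0.72 ± 0.11, adjusted p = 2.0e-05).

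On the embryo side, STM, the homeobox gene that maintains the shoot meristem, was at 0, 0.0178 and 0.282 CPM in endosperm and at 6.81, 10.1 and 14.0 CPM in embryo. SHR, which patterns the root, was at 0, 0.375 and 2.46 CPM in endosperm, against 34.1, 37.5 and 49.0 CPM in embryo. PLT1, a root stem cell gene, was at 0, 0.198 and 1.00 CPM in endosperm and 21.4, 26.8 and 35.7 CPM in embryo. These 3 genes stayed at 2.46 CPM or less in every endosperm library, whereas SCR, another gene of root pattern, was at 5.82, 8.75 and 11.97 CPM in endosperm and 102, 107 and 112 CPM in embryo. MP, the auxin response factor that starts root and vascular formation, was at 1.80, 3.34 and 13.1 CPM in endosperm and 195, 231 and 266 CPM in embryo (log2 -5.61 ± 0.35, adjusted p = 2.4e-10). Genes of the embryo's outer layer gave the same order: PDF1 had 7.68, 38.1 and 73.9 CPM in endosperm and 1110.4, 1198 and 1370.3 CPM in embryo, and ATML1, a homeodomain regulator of that layer, had a log2 difference of -2.96 ± 0.14 (adjusted p = 1.0e-11).

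The embryo markers that went the other way were LEC2 and CUC1. LEC2, a regulator of embryo maturation, was at 30.3, 54.9 and 214 CPM in endosperm and at 13.9, 17.1 and 22.3 CPM in embryo (log2 2.05 ± 0.29, adjusted p = 5.7e-06), and was higher in endosperm in each cross, by between 1.06 and 2.96 on the log2 scale. CUC1, which sets cotyledon boundaries in the embryo, was at 9.75, 18.5 and 29.7 CPM in endosperm and 3.77, 5.57 and 8.17 CPM in embryo, while its relatives CUC2 and CUC3 were lower in endosperm (log2 -5.24 and -4.27). WOX8, a gene of the basal embryo lineage, overlapped between the tissues (8.24, 12.8 and 30.5 CPM in endosperm, 5.29, 12.5 and 19.9 CPM in embryo, adjusted p = 0.37).

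Seed coat markers were present beside the endosperm. Of 26 tested, 19 were higher in endosperm than in embryo and 3 were lower, with a median log2 difference of 3.52, and their sum was 340, 712 and 1066 CPM in endosperm (lowest, median, highest) and 138, 153 and 195 CPM in embryo. BAN, the anthocyanidin reductase of the seed coat's tannin layer, was at 43.6, 100.1 and 147 CPM in endosperm and 2.15, 4.16 and 11.0 CPM in embryo. LDOX, also of tannin synthesis, was at 38, 86.0 and 120.1 CPM in endosperm and 0.673, 4.12 and 8.99 CPM in embryo, and TT4, chalcone synthase, at 71.9, 189 and 303 CPM in endosperm and 10.1, 17.9 and 29.3 CPM in embryo. Their allele reads in hybrid endosperm were 99.9%, 99.97% and 99.7% maternal, and the 12 seed coat markers with enough allele reads had a median maternal share of 98.7% in endosperm; 6 had a median of 62.9% in embryo. MUM2, a galactosidase of seed coat mucilage, had the largest difference (log2 5.40 ± 0.24, adjusted p = 6.7e-12), whereas TTG2 and CESA5, a WRKY factor and a cellulose synthase of the same tissue, were lower in endosperm (log2 -2.72 and -1.89). When the endosperm library of each cross with the higher seed coat sum (763 CPM in Col x Col, 803 in C24 x C24, 1066 in C24 x Col and 891 in Col x C24) was left out, an alternative chosen after the data were seen, 6044 genes were called at 4-fold, 3652 higher in endosperm and 2392 lower. The endosperm libraries kept still summed to between 340 and 660 CPM of seed coat markers, above every embryo library. More genes were also tested, 20557 against 20235. That count therefore cannot show what part seed coat RNA has in the other differences, which was not tested.

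The largest differences among genes with a symbol, a mean of at least 5 CPM and no overlap were led in endosperm by members of multigene families. SK9, SK8 and SK7 belong to the Skp1-like family, whose proteins link F-box proteins to ubiquitin ligases. SK9 was at 6.69, 12.1 and 112 CPM in endosperm (lowest, median, highest) and at 0, 0 and 0.588 CPM in embryo, with 13 embryo reads in all. Near-identical family members may share reads, so the values of single SK genes are uncertain. Of 19 tested Skp1-like genes 11 were higher in endosperm and 7 lower, against 40.5% and 39.5% of all genes tested. ACA5, an alpha carbonic anhydrase, was at 3.66, 10.4 and 20.6 CPM in endosperm and at 0, 0 and 0.0891 CPM in embryo. ENT7, a nucleoside transporter, was at 72.3, 163 and 329.9 CPM in endosperm and 0.0612, 1.5 and 2.81 CPM in embryo (log2 6.98 ± 0.39, adjusted p = 7.3e-11). AGO3, an Argonaute that binds small RNAs, was at 8.85, 25.3 and 111 CPM in endosperm and 0.0568, 0.151 and 1.5 CPM in embryo (log2 7.17 ± 0.65, adjusted p = 2.6e-08), with 100% of allele reads maternal. The transcription factor gene DOF4.4, the tetraspanin gene TET9 and ARI4, of the ARIADNE ubiquitin ligase family, completed this end with log2 differences of 7.55, 7.02 and 7.22. These had 6, 18 and 15 reads over all embryo libraries, so their sizes are uncertain. DOF4.4 ran from 0.875 to 30.1 CPM and TET9 from 1.14 to 68.0 CPM among endosperm libraries.

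Defensin-like LCR genes, which encode small secreted cysteine-rich proteins, formed the most one-sided family. Of 81 genes 44 were tested, 43 of these were higher in endosperm, all by at least 4-fold, and 1 was lower; the median was 5.98. Many of the 81 were below the filter on low counts, and a gene read mainly in one tissue passes it only through that tissue, so the 44 are not the whole family. Of 3 members among the largest differences, LCR27 had the widest spread among libraries (20.8, 255 and 729.9 CPM in endosperm; 0.122, 1.63 and 4.64 CPM in embryo, log2 7.19 ± 0.69). LCR29 had the least (26.8, 36.9 and 50.8 CPM in endosperm; 0, 0.203 and 0.849 CPM in embryo, log2 7.14 ± 0.31, adjusted p = 4.8e-12), and LCR16 was at 27.9, 72.2 and 168 CPM in endosperm and 0.122, 0.471 and 1.44 CPM in embryo. That the tissues stayed apart for these genes was a condition of their choice.

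Tested members of other families were uneven as well, by counts chosen for print after their values were seen. A gene read mainly in a single tissue is tested only through that tissue, so these counts do not describe whole families. Over all genes tested 40.5% were higher in endosperm and 39.5% lower. AGL92, a MADS-box transcription factor gene, was at 12.5, 20.3 and 28.7 CPM in endosperm and 0.171, 0.414 and 0.758 CPM in embryo. PHE1 and PHE2, MADS-box neighbours that are close copies and may share reads, had medians of 119 and 114 CPM in endosperm and 0.999 and 1.43 CPM in embryo. Of 101 tested cytochrome P450 genes (CYP, 225 in all) 57 were higher in endosperm and 22 lower. Of 39 tested NAC genes (81 in all) 25 were higher and 8 lower. On the other side stood families of organ patterning and growth. Of 7 tested WOX homeobox genes (11 in all) none was higher in endosperm and 6 were lower (median -4.45). Of 10 tested CLE peptide genes (30 in all) 2 were higher and 8 lower. Of 13 TCP factors (16 in all) 1 was higher and 9 lower. Of 15 Aux/IAA repressors of auxin response (24 in all) 1 was higher and 11 lower. Of 12 alpha-expansins (24 in all), which loosen cell walls, 2 were higher and 9 lower.

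Among the genes most reduced in endosperm were regulators of root and shoot pattern. MGP, a zinc-finger protein downstream of SHR in the root, was at 0, 0 and 0.375 CPM in endosperm and 10.8, 12.3 and 13.9 CPM in embryo, with 6 reads over all endosperm libraries. CHAL, a secreted peptide of stomatal patterning, was at 0, 0.0178 and 0.211 CPM in endosperm and 8.29, 9.69 and 13.7 CPM in embryo. HSFB4, a heat-shock-factor relative that acts in root stem cells, was at 0, 0.0567 and 0.634 CPM in endosperm and 20.8, 28.0 and 37.1 CPM in embryo (log2 -7.15 ± 0.40, adjusted p = 6.2e-11). No overlap between the tissues was a condition for naming these genes, so it is not a result. The boundary gene LSH4, the cytokinin response inhibitor HP6, the GATA factor GNC, the carboxypeptidase gene scpl46, the purine transporter AZG2, TEL1 and BZIP34 had log2 differences between -6.62 and -6.43, and each held at most 29 reads over the 8 endosperm libraries.

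**Figure D2:**
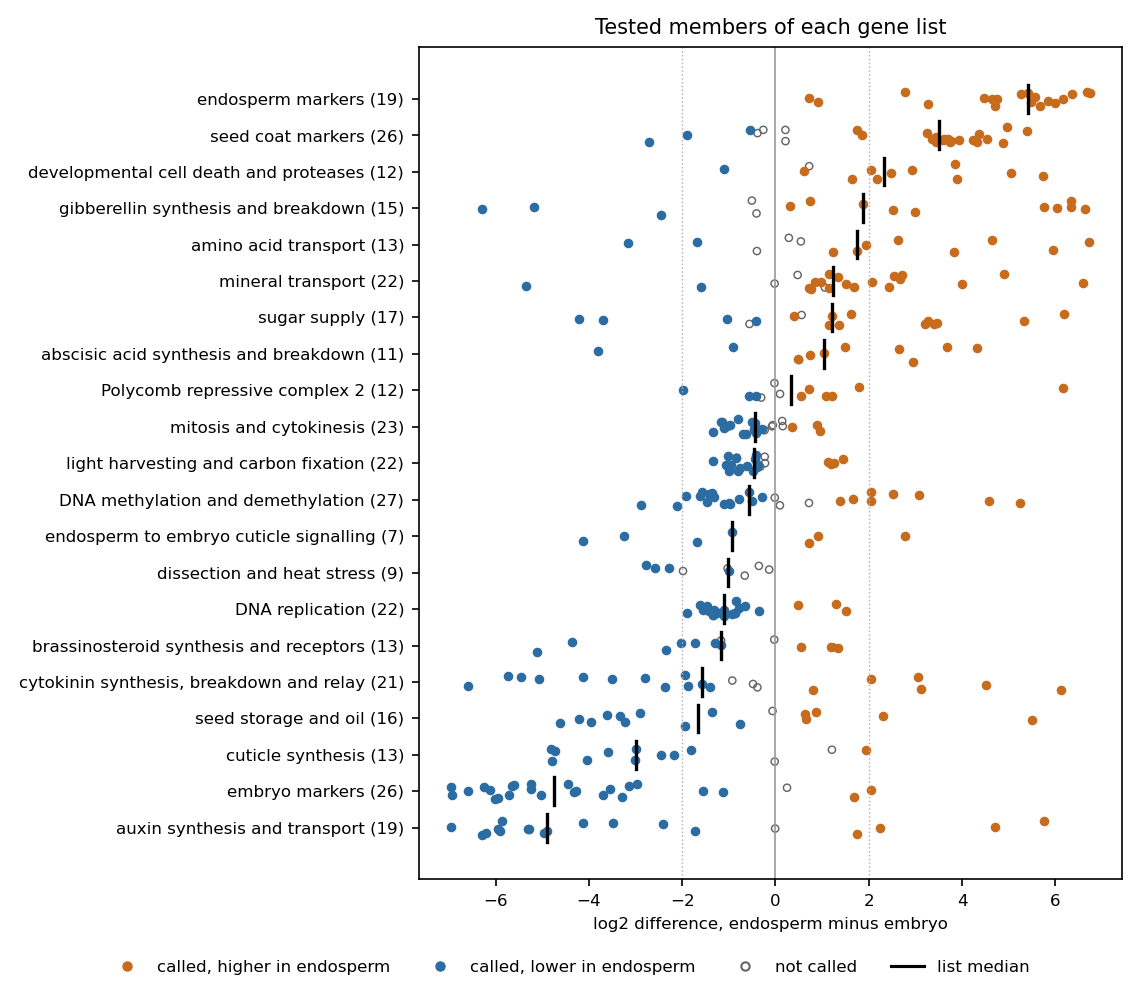
Log2 difference, endosperm minus embryo, of the tested members of 21 gene lists (number tested in brackets); points are genes, filled where called, and the bar is the list median. The endosperm markers have a median of 5.42 and the embryo markers of -4.74, and DNA replication genes keep within 4-fold on both sides.

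Gibberellin genes were found on both sides. Of 15 tested genes of gibberellin synthesis and breakdown 10 were higher in endosperm and 3 lower (median 1.87). This count and those of the lists below stand beside the background of 40.5% higher and 39.5% lower over all genes tested. GA20OX3 and GA3OX3, which catalyse the last steps to active gibberellin, and KAO1, of an earlier step, are given as well-measured members and were chosen after their values were seen. GA3OX3 was at 159, 202 and 399 CPM in endosperm and 1.22, 3.65 and 5.94 CPM in embryo (log2 6.05 ± 0.27, adjusted p = 6.8e-12). GA20OX3 was at 405, 485 and 706 CPM in endosperm and 27.9, 65.6 and 101 CPM in embryo, and KAO1 at 120.4, 149 and 218 CPM in endosperm and 18.8, 28.3 and 38.7 CPM in embryo. Of the inactivating oxidases, GA2OX2 was at 0, 0.483 and 1.57 CPM in endosperm and 18.4, 23.4 and 27.8 CPM in embryo (log2 -5.18 ± 0.37), and GA2OX4 at 0, 0.0462 and 0.625 CPM in endosperm and 9.03, 12.2 and 15.8 CPM in embryo (log2 -6.30 ± 0.47). The tissues did not overlap for either. GA2OX3, another of these oxidases, was higher in endosperm at low levels (0, 0.346 and 4.25 CPM, against 0, 0 and 0.0297 CPM in embryo, with 1 embryo read), and GA20OX1, of synthesis, was lower (0, 0.0844 and 0.775 CPM, against 0.261, 0.907 and 1.61 CPM). GA3OX4, with the largest fitted difference of the list, had a median of 4.90 CPM in endosperm and 0 CPM in embryo, with 8 embryo reads.

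Abscisic acid genes were higher in endosperm for both synthesis and breakdown, with 8 of 11 tested genes higher and 2 lower (median 1.04). NCED6, which catalyses the committed step of synthesis in endosperm, was at 31.0, 55.2 and 171 CPM in endosperm and 3.69, 5.57 and 6.54 CPM in embryo (log2 3.69 ± 0.23, adjusted p = 2.0e-10). CYP707A1, which breaks abscisic acid down, was at 36.3, 61.9 and 80.8 CPM in endosperm and 3.81, 7.98 and 11.3 CPM in embryo (log2 2.96 ± 0.19). ABA4, of neoxanthin synthesis, was lower in endosperm at 7.82, 11.4 and 14.7 CPM, against 18.0, 20.8 and 26.2 CPM in embryo. NCED4 was higher in endosperm (1.18, 1.78 and 3.18 CPM) than in embryo (0, 0.0730 and 0.196 CPM), and NCED3, barely read in either tissue, was lower (median 0 CPM in endosperm and 0.596 CPM in embryo).

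Of 21 tested cytokinin genes 6 were higher in endosperm and 12 lower (median -1.57). CKI1, a histidine kinase that specifies the central cell and endosperm, was at 11.8, 38.9 and 252 CPM in endosperm and 0, 0.827 and 2.56 CPM in embryo (log2 6.13 ± 0.37, adjusted p = 1.6e-10). CYP735A1, which makes trans-zeatin forms, was at 6.20, 12 and 20.7 CPM in endosperm and 0.183, 0.625 and 1.11 CPM in embryo. The activating enzyme LOG3 was at 0, 0.117 and 1.06 CPM in endosperm and 12.8, 14.8 and 23.8 CPM in embryo (log2 -5.73 ± 0.42). Cytokinin oxidases, which degrade the hormone, divided: CKX3 was higher in endosperm (3.12, 7.05 and 17.9 CPM, against 0.267, 0.824 and 1.72 CPM in embryo), and CKX5 was lower (0, 0.125 and 1.06 CPM, against 9.51, 11.2 and 16.1 CPM).

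Auxin genes had the lowest median of the hormone lists. Of 19 tested 4 were higher in endosperm and 14 lower (median -4.89). The influx carrier LAX2 was at 0.422, 1.04 and 6.69 CPM in endosperm and 115, 145 and 196 CPM in embryo, and the efflux carrier PIN4 at 0, 0.0704 and 0.875 CPM in endosperm and 14.5, 17.0 and 26.6 CPM in embryo. TAA1, the aminotransferase that starts auxin synthesis from tryptophan, was on the other side at 67.5, 153 and 296 CPM in endosperm and 22, 28.4 and 38.6 CPM in embryo (log2 2.25 ± 0.22, adjusted p = 6.0e-08). YUC10, of the next step, was at 3.29, 8.6 and 12.5 CPM in endosperm and 0.0568, 0.216 and 1.03 CPM in embryo, and only 0.672% of its endosperm allele reads were maternal. Its relatives YUC1, YUC3, YUC4, YUC6 and YUC8 were lower in endosperm (log2 -5.86, -4.89, -5.96, -4.12 and -5.28). TAR1, related to TAA1, was higher in endosperm (0, 1.36 and 15.5 CPM, against 0, 0 and 0.424 CPM), and so was AUX1, an influx carrier named after its values were seen (117, 180.5 and 308 CPM in endosperm, 49.0, 52.9 and 63.5 CPM in embryo).

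Of 13 brassinosteroid genes 3 were higher in endosperm and 7 lower (median -1.16). DWF4, the rate-limiting hydroxylase of synthesis, was at 0.506, 1.5 and 3.17 CPM in endosperm and 50.9, 55 and 64.5 CPM in embryo (log2 -5.11 ± 0.23, adjusted p = 6.8e-12), and BR6OX2, of the last steps, at 0, 0.410 and 0.907 CPM in endosperm and 6.30, 9.64 and 15.5 CPM in embryo. BAS1, which inactivates the hormone, was lower in endosperm as well (log2 -2.35 ± 0.22). DWF1 and DET2, of earlier steps, were higher in endosperm: DWF1 was at 1035, 1143 and 1548 CPM, against 702, 859 and 960.3 CPM in embryo (log2 0.54 ± 0.11, adjusted p = 0.00023).

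**Figure D3:**
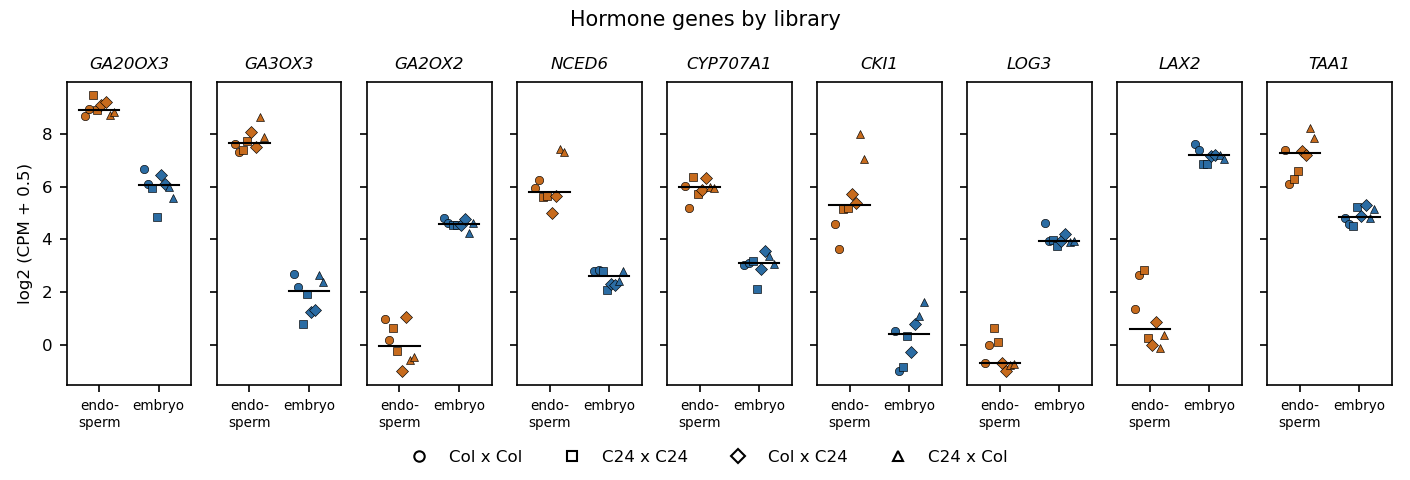
Level of hormone genes in each library, as log2 of CPM plus 0.5, with endosperm left and embryo right in each panel; points are libraries, their shape gives the cross, and lines are medians. GA3OX3 separates the tissues upward in endosperm (159 CPM or more against 5.94 CPM or less in embryo) and LAX2 downward (6.69 CPM or less against 115 CPM or more in embryo).

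Genes that transport food were mostly higher in endosperm, with counts to be read beside the background of 40.5% higher and 39.5% lower. For sugar supply 11 of 17 tested genes were higher and 4 lower (median 1.21), for amino acid transport 8 of 13 were higher and 2 lower (median 1.74), and for mineral transport 17 of 22 were higher and 2 lower (median 1.24). SUS1, a sucrose synthase, was at 24.6, 89.5 and 275 CPM in endosperm and 5.91, 7.33 and 11.7 CPM in embryo (log2 3.47 ± 0.28, adjusted p = 6.5e-09). CWINV1, a cell wall invertase, and the transporter SUC1 were lower in endosperm, at 0.422, 1.38 and 3.5 CPM against 16.5, 28.4 and 35.3 CPM in embryo, and at 0.953, 2.77 and 7.82 CPM against 17.3, 38.3 and 89.7 CPM. The transporter genes with the largest fitted differences, SWEET10, SUC8, UMAMIT14 and UMAMIT24, had 1 to 6 reads over all embryo libraries, and no size is given for them.

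CAT5, an amino acid transporter, was at 3.12, 5.54 and 8.88 CPM in endosperm and 0, 0.162 and 1.5 CPM in embryo, and AAP5, an amino acid permease, was lower in endosperm (7.38, 12.3 and 22.5 CPM, against 32.3, 39.9 and 49.9 CPM). Of the mineral genes, YSL3, a metal-nicotianamine transporter, and the sulfate transporter SULTR2;1 were higher in endosperm (log2 4.01 ± 0.80 and 4.91 ± 0.66), both at low levels. YSL3 was at 0.125, 4.30 and 26.7 CPM in endosperm and 0.101, 0.393 and 1.04 CPM in embryo, with overlap. SULTR2;1 was at 0.704, 2.01 and 3.46 CPM in endosperm and 0, 0.0284 and 0.303 CPM in embryo, with 11 embryo reads in all. HMA2, a zinc-exporting ATPase, and the sulfate transporter SULTR3;4 had higher levels and were named after their values were seen. HMA2 was at 88.0, 133 and 199 CPM in endosperm and 11.7, 24.1 and 30.6 CPM in embryo (log2 2.54 ± 0.19), and SULTR3;4 at 72.4, 93.6 and 198 CPM in endosperm and 17.0, 19.6 and 21.8 CPM in embryo (log2 2.44 ± 0.15). VIT1, which loads iron into the vacuole, was lower in endosperm at 0, 0.577 and 2.38 CPM, against 20.1, 28.3 and 38.1 CPM in embryo (log2 -5.36 ± 0.38, adjusted p = 1.0e-09).

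The embryo's cuticle is made under a dialogue between the tissues, in which the endosperm protease ALE1, under the factors ZOU and ICE1, releases a peptide that embryo receptor kinases perceive. All 7 tested genes of this dialogue were called, 3 higher in endosperm and 4 lower. ZOU was at 73.5, 94.6 and 131 CPM in endosperm and 4.83, 16.0 and 23.1 CPM in embryo (log2 2.77 ± 0.18, adjusted p = 3.7e-10). ALE1 was at 77.7, 97.0 and 152 CPM in endosperm and 30.6, 61.0 and 75.5 CPM in embryo (log2 0.91 ± 0.18, adjusted p = 0.00025), so its embryo libraries reached close to the lowest endosperm library. Allele reads in embryo were 66.4% maternal for ALE1 and 79.8% for ZOU, against a median of 51.0% over all genes. The 4 genes of this list with enough allele reads had an embryo median of 58.2%. What part RNA from other tissues has in the embryo libraries was not tested. The receptor kinase gene GSO1 was at 1.77, 2.42 and 8.17 CPM in endosperm and 41.2, 49.3 and 60.9 CPM in embryo (log2 -4.12 ± 0.23, adjusted p = 8.1e-11). Its partner GSO2 (log2 -1.69 ± 0.15), the receptor kinase ACR4 (-3.25 ± 0.20) and ALE2 (-0.92) were lower in endosperm as well.

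The genes that build the cuticle were lower in endosperm for 10 of 13 tested and higher for 1 (median -3.00). DCR, an acyltransferase needed for cutin, was at 7.56, 18.2 and 39.6 CPM in endosperm and 501, 553 and 665 CPM in embryo (log2 -4.82 ± 0.28, adjusted p = 1.1e-10). BDG, a hydrolase of the cuticle, was at 0.841, 1.5 and 3.88 CPM in endosperm and 45.9, 53.7 and 60.7 CPM in embryo, and LACS2, which activates cutin acids, at 0.841, 3.83 and 6.97 CPM in endosperm and 81.8, 95.7 and 117 CPM in embryo. CER5, a wax exporter, was the member higher in endosperm (7.50, 12.6 and 24.2 CPM, against 2.08, 2.91 and 10.6 CPM, log2 1.93 ± 0.32), and the tissues overlapped.

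ABCG11, the exporter of cutin and wax that pairs with CER5, was named after its values were seen. It was at 22.3, 28.0 and 36.0 CPM in endosperm and 91.8, 98.6 and 104 CPM in embryo (log2 -1.81 ± 0.10, adjusted p = 9.2e-11). Its allele reads were 85.1% maternal in endosperm and 52.6% in embryo. Its promoter is shown because it holds both forms of the L1 box, the element bound by ATML1 and PDF2 in the outer layer, at 82 and 47 bases before the start (TAAATGCA and TAAATGTA, searched on both strands and marked in capitals; chr1:6142152-6142401, plus strand). An L1 box was found in 2 of the 13 promoters of cuticle genes (15.4%), in 4.42% of all promoters, in 5.96% of those 4-fold or more lower in endosperm and in 4.37% of those 4-fold or more higher.
ABCG11 promoter: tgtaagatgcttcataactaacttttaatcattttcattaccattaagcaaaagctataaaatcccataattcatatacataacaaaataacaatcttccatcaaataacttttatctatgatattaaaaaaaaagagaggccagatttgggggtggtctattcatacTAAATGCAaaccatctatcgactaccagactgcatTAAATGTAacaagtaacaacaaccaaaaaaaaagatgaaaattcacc

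DNA replication genes lay within a narrow range. Of 22 tested 19 were lower in endosperm and 3 higher, none by 4-fold, with a median of -1.10. MCM6 and MCM7, subunits of the helicase that opens DNA for replication, led: MCM6 was at 11.7, 21.1 and 28.7 CPM in endosperm and 65.7, 80.3 and 89.6 CPM in embryo (log2 -1.89 ± 0.16, adjusted p = 7.0e-09), and MCM7 at 43.7, 58.3 and 68.1 CPM in endosperm and 166, 176 and 189.9 CPM in embryo (log2 -1.62 ± 0.10). RNR1, the large subunit of ribonucleotide reductase, was at 48.7, 69.9 and 86.1 CPM in endosperm and 184, 195 and 209.7 CPM in embryo (log2 -1.56 ± 0.12). The genes on the other side all act in licensing origins before the helicase opens. CDC6 was at 16.2, 26.9 and 50.6 CPM in endosperm and 6.18, 10.1 and 12.5 CPM in embryo (log2 1.5 ± 0.20, adjusted p = 3.1e-06), ORC2 had a log2 difference of 1.29 ± 0.16 (adjusted p = 1.4e-06), and ORC6 one of 0.49 ± 0.09 (adjusted p = 0.00015). ORC1A and ORC1B, of the same complex, were lower in endosperm (log2 -1.10 and -0.77), as were the licensing factors CDT1A and CDT1B (-1.31 and -0.66).

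Promoters of 3 of these genes are shown because E2F sites, bound by the factors that switch on S-phase genes, were concentrated in this list: the letters TTTCCCGC or TTTGGCGC, on either strand, were in 9 of its 22 promoters (40.9%) and in 1.07% of all promoters, with 0.901% among genes 4-fold or more higher in endosperm and 0.789% among those 4-fold or more lower. Capitals mark the site, 14 bases before the start of MCM2 (chr1:16969964-16970213, plus strand), 46 before that of MCM6 (chr5:18010668-18010917, minus strand) and 9 before that of ORC2 (chr2:15758351-15758600, plus strand). MCM2, named after its values were seen, was lower in endosperm (52.3, 82.5 and 103 CPM, against 119.8, 144 and 165 CPM in embryo), and ORC2 was higher (14.7, 27.1 and 38 CPM, against 6.80, 10.9 and 11.8 CPM), so a promoter with the site occurred on either side.
MCM2 promoter: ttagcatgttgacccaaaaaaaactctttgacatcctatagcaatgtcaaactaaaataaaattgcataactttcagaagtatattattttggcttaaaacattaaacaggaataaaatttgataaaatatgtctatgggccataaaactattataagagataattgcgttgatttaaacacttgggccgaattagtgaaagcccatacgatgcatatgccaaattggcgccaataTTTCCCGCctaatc
MCM6 promoter: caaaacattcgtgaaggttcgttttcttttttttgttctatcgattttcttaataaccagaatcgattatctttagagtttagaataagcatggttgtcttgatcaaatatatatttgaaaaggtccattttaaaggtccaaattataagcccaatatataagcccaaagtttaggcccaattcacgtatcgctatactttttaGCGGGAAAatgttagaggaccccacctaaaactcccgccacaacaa
ORC2 promoter: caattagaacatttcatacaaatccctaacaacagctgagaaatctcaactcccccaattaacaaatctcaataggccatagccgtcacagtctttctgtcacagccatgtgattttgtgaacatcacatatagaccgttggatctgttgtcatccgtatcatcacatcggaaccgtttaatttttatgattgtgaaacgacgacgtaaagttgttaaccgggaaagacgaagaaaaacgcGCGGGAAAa

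Mitosis and cytokinesis genes were less uniform, with 15 of 23 tested lower in endosperm and 3 higher, none by 4-fold (median -0.45). TPX2, which organises the spindle, was at 26.4, 36.7 and 57.6 CPM in endosperm and 82.1, 93.9 and 102 CPM in embryo (log2 -1.34 ± 0.11, adjusted p = 9.7e-09), and the Aurora kinase gene AUR2 at 12.4, 19.9 and 37.1 CPM in endosperm and 41.7, 49.4 and 59.8 CPM in embryo. KN, the syntaxin that builds the cell plate, was higher in endosperm (314, 616 and 880.4 CPM, against 241, 305 and 389 CPM, log2 0.96 ± 0.14, adjusted p = 9.0e-06), with 7 of 8 endosperm libraries above all embryo libraries. The mitotic kinase gene CDKB1;1 was higher as well (51.6, 68.1 and 89.0 CPM, against 29.8, 37.7 and 46.2 CPM).

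Of 12 tested genes of developmental cell death and proteolysis 10 were higher in endosperm and 1 lower (median 2.33). NAC046, a factor that promotes cell death in the root cap, was at 7.08, 14.0 and 43.9 CPM in endosperm and 0, 0.301 and 0.921 CPM in embryo (log2 5.75 ± 0.30, adjusted p = 3.4e-11). Vacuolar processing enzymes are proteases that mature seed proteins and act in cell death, and ALPHA-VPE was at 19.0, 54.0 and 109 CPM in endosperm and 1.88, 3.64 and 6.18 CPM in embryo (log2 3.89 ± 0.23). The metacaspase gene MC9 was higher in endosperm too (log2 5.04), at low levels with medians of 1.84 CPM in endosperm and 0 CPM in embryo. DELTA-VPE, known from the inner seed coat and named after its values were seen, was at 272, 424 and 918 CPM in endosperm and 10.7, 35.7 and 92.0 CPM in embryo, and its allele reads were 88.2% maternal in endosperm and 88.6% in embryo. The part of seed coat RNA in that gene was not tested. BETA-VPE, which processes storage proteins, was the lower one (3.13, 15.1 and 32.5 CPM in endosperm, 21.6, 35.1 and 50.6 CPM in embryo, log2 -1.11 ± 0.31, adjusted p = 0.0036), with overlap.

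Storage protein and oil genes were lower in endosperm for 10 of 16 tested and higher for 5 (median -1.65). The background was 39.5% lower and 40.5% higher. OLEO4, which coats oil bodies, was at 0.885, 1.82 and 9.65 CPM in endosperm and 44.4, 62.5 and 72.0 CPM in embryo (log2 -4.63 ± 0.34, adjusted p = 1.6e-09). WRI1, which switches on fatty acid synthesis, was higher in endosperm (211, 303 and 412 CPM, against 132, 166 and 181 CPM, log2 0.88 ± 0.11). FAE1, the elongase that makes long-chain fatty acids, was at 0, 12.4 and 70.8 CPM in endosperm and 0, 1.80 and 8.59 CPM in embryo (log2 2.31 ± 0.62, adjusted p = 0.0027). Its endosperm libraries were far apart by cross, with 0.567 and 0 CPM in Col x Col and 70.8 and 27.9 CPM in C24 x C24, beside 1.18 and 0 CPM in Col x Col embryo and 5.69 and 1.53 CPM in C24 x C24 embryo. The F test of the tissue difference over crosses did not call it (adjusted p = 0.60).

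Polycomb repressive complex 2 genes included 6 higher in endosperm and 3 lower of 12 tested (median 0.33). Over all genes tested 40.5% were higher and 39.5% lower. Beside FIS2, EMF1, a partner of the complex, was at 87.7, 115 and 189 CPM in endosperm and 27.7, 33.4 and 44.5 CPM in embryo (log2 1.80 ± 0.15). The alternative catalytic subunits differed in direction: SWN was at 63.5, 80.6 and 123 CPM in endosperm and 30.6, 35.8 and 42.3 CPM in embryo (log2 1.21 ± 0.09, adjusted p = 2.6e-09), and CLF at 6.95, 8.99 and 12.7 CPM in endosperm and 34.3, 37.2 and 41.4 CPM in embryo (log2 -1.99 ± 0.13, adjusted p = 2.7e-10).

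Genes of DNA methylation and demethylation were lower in endosperm for 16 of 27 tested and higher for 8 (median -0.57), beside a background of 39.5% lower and 40.5% higher. The neighbours VIM5 and VIM1, which encode proteins that bind methylated DNA and are close relatives that may share reads, went opposite ways. VIM5 was at 70.3, 82.2 and 96.6 CPM in endosperm and 2.39, 3.35 and 5.09 CPM in embryo (log2 4.58 ± 0.14, adjusted p = 3.4e-13), and VIM1 at 26.3, 33.6 and 55.5 CPM in endosperm and 196, 279 and 326 CPM in embryo (log2 -2.87 ± 0.16, adjusted p = 7.6e-11). In endosperm 3.97% of VIM5 and 24.9% of VIM1 allele reads were maternal; in embryo the shares were 6.75% and 50.2%. MET2A, a methyltransferase relative of MET1, was at 33.9, 47.1 and 60.2 CPM in endosperm and 2.44, 5.72 and 7.71 CPM in embryo, while MET1 itself was lower in endosperm (log2 -1.0). DML3, a demethylase, was higher in endosperm (4.99, 7.40 and 25.8 CPM, against 0.0547, 0.240 and 0.398 CPM). Of genes that act in RNA-directed DNA methylation, AGO4 was lower (149, 181 and 201 CPM in endosperm, 589, 653 and 746 CPM in embryo, log2 -1.91 ± 0.10), and so was DRM3 (10.5, 14.0 and 18.7 CPM in endosperm, 49.9, 63.3 and 72.8 CPM in embryo).

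Light harvesting and carbon fixation genes were lower in endosperm for 14 of 22 tested and higher for 4, none by 4-fold (median -0.46). Among antenna genes of photosystem II, LHCB2.1 was higher in endosperm (149, 270.3 and 566 CPM, against 91.8, 97.3 and 122 CPM, log2 1.44 ± 0.19), as was LHCB1.1 (1.26 ± 0.20), and of photosystem I LHCA1 was lower (216, 404 and 507 CPM, against 536, 729 and 1017 CPM, log2 -1.05 ± 0.16). RCA, which activates Rubisco, was also lower (log2 -1.35 ± 0.14, adjusted p = 1.6e-07). Members of these families are close copies and may share reads.

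Heat stress genes, listed as a sign of handling, spread widely among the libraries of both tissues. None of 9 tested was higher in endosperm and 4 were lower, and the list summed to 262, 1185 and 1816 CPM in endosperm and 211, 1684 and 5897 CPM in embryo. HSFA2, a heat stress transcription factor, had 37.6 and 3.25 CPM in Col x Col endosperm, 21.6 and 104 in C24 x C24, 34.8 and 72.5 in C24 x Col, and 57.4 and 34.2 in Col x C24 (replicates 1 and 2), against 254 and 44.2, 121 and 641, 239 and 474, and 405 and 269.7 CPM in the embryo libraries of the same crosses and numbers. In each cross the replicate with more HSFA2 in endosperm was also the one with more in embryo. HSFA2 was lower in endosperm overall (log2 -2.77 ± 0.49, adjusted p = 6.3e-05), as were HSP17.6A and HSP17.6II (-2.59 and -2.29).

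Allele reads of the hybrids gave a maternal share per gene. Genes with at least 10 allele reads in each hybrid library of a tissue numbered 8205 in endosperm and 9567 in embryo. Total level thus decided which genes had a share. In endosperm these were 1366 of the 3679 genes 4-fold or more higher and 229 of the 2290 lower. The classes below are therefore unequal selections, and their shares are not independent of level. The median maternal share in endosperm was 66.4% over all of these, 65.2% for 1366 genes that were 4-fold or more higher in endosperm and 65.7% for 229 that were 4-fold or more lower, close to the 66.7% of a pair of maternal genomes to 1 paternal. Shares of 95% or more were not spread evenly. Among the 4-fold higher genes 70 (5.12%) were at least 95% maternal in endosperm, against 88 (1.07%) over all genes. Of the 229 lower genes 1 (0.437%) reached 95%. Shares under 50% were alike in both classes, with 109 (7.98%) of the higher and 18 (7.86%) of the lower genes. Over all genes they numbered 296 (3.61%). Of the 70, 8 were seed coat markers, the maternal tissue described above, which had 9 members among the 4-fold higher genes with a share; the part of seed coat RNA in the others was not tested. In embryo the median was 51.0% over all genes, 50.3% for 1145 genes 4-fold or more lower in endosperm and 55.4% for 496 that were 4-fold or more higher.

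**Figure D4:**
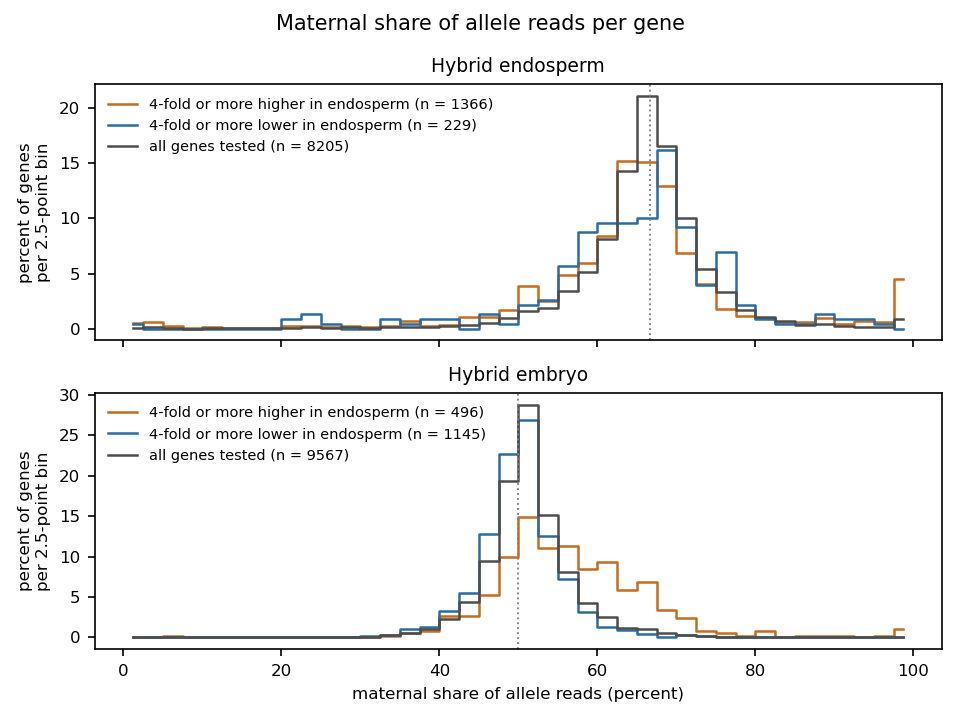
Maternal share of allele reads per gene (percent) in hybrid endosperm (top) and hybrid embryo (bottom), as the percentage of genes in bins of 2.5 points, for genes 4-fold or more higher in endosperm, 4-fold or more lower and all genes; dotted lines mark 66.7% and 50%. Most endosperm values lie around 66.4% and embryo values around 51.0%, and a tail at 95% or more holds 5.12% of the genes 4-fold or more higher in endosperm, 8 seed coat markers among them.

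Single genes filled both ends. FIS2, SK9 and SDC, an F-box gene that DNA methylation silences elsewhere in the plant, were read from the maternal allele in endosperm (99.5%, 99.5% and 99.8%), an end they shared with the seed coat genes BAN, LDOX and TT4. YUC10, VIM5, PHE1 and DEL2, an atypical E2F factor, were read mainly from the paternal allele (0.672%, 3.97%, 5.46% and 7.32% maternal), and for DEL2 the embryo share was 47.8%. The share of PHE2 was 64.9%. AGL92 depended on the cross, with 6.98% and 4.02% maternal in the Col x C24 endosperm libraries and 36.6% and 39.9% in the C24 x Col endosperm libraries. So did HDG9: 65.4% and 66.0% of its reads were maternal in the Col x C24 endosperm libraries, and 97.0% and 96.8% in the C24 x Col endosperm libraries, so Col reads were scarce where Col was the pollen parent.

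Whether the tissue difference itself depended on the cross was tested by interaction. Over the 4 crosses 113 of 20235 genes (0.558%) were called by the F test, and 2341 had an unadjusted p under 0.05. The tissue differences of Col x Col and C24 x C24 differed for 359 genes (1.77%), 205 (1.01%) with a higher and 154 (0.761%) with a lower value in Col x Col. With replicate number added as a block common to all crosses, these counts were 310 and 777. Same-numbered libraries deviated together within each cross, which a common block does not model, and a block per pair was not fitted here. The split between the selfed crosses turned with the settings: 106 genes had a higher and 365 a lower value in Col x Col with library totals, 301 and 391 with no filter, 113 and 150 without Col x C24 embryo replicate 1, and 121 and 172 without C24 x C24 embryo replicate 2, so no direction is drawn from it. Leaving out single libraries lowered the F test count to between 29 (without Col x Col embryo replicate 2) and 75 (without Col x Col endosperm replicate 1) for 11 of the 16 libraries. Between the selfed crosses the count was 105 without Col x Col embryo replicate 1 and 114 without its replicate 2, 174 and 184 without replicates 1 and 2 of Col x Col endosperm, 142 and 227 without those of C24 x C24 endosperm, 194 without C24 x C24 embryo replicate 1 and 239 without Col x C24 embryo replicate 2.

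ACR1, of the ACT domain repeat family, changed direction with the cross. Its endosperm level was 232 and 198 CPM in Col x Col, 1.97 and 1.76 CPM in C24 x C24, 113 and 72.3 CPM in C24 x Col and 90.5 and 59.0 CPM in Col x C24, whereas embryo libraries of all crosses lay between 5.36 and 7.99 CPM. The log2 difference was 5.24 ± 0.30 in Col x Col and -1.81 ± 0.30 in C24 x C24, and those of the hybrids, 3.67 and 3.74, lay between (F test adjusted p = 2.7e-05). DEL2 was at 192 and 187 CPM in Col x Col endosperm and 19.4 and 22.3 CPM in C24 x C24 endosperm, with all embryo libraries between 9.47 and 14.2 CPM (adjusted p = 0.0012). Both genes thus varied in endosperm and hardly in embryo.

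WNK2, a kinase of the WNK family, was at 0.340 and 0.750 CPM in Col x Col endosperm and at 21.5 and 20.4 CPM in C24 x C24 endosperm, against 19.0 and 16.2 CPM in Col x Col embryo and 37.9 and 29.0 CPM in C24 x C24 embryo (adjusted p = 0.0014). GGT2, a gamma-glutamyl transpeptidase, varied most in embryo: it was at 347 and 304 CPM in Col x Col endosperm and 144 and 216 CPM in C24 x C24 endosperm, against 17.8 and 23.2 CPM in Col x Col embryo and 121 and 144 CPM in C24 x C24 embryo (adjusted p = 0.0016). LPLAT2, a membrane-bound acyltransferase, was higher in endosperm in Col x Col (log2 0.65 ± 0.15) and lower in C24 x C24 (-1.24 ± 0.15; F test adjusted p = 0.0079). UGT78D2, which glucosylates flavonoids, had log2 differences of 0.03 in Col x Col, -0.74 in C24 x C24, 1.49 in C24 x Col and 0.01 in Col x C24 (F test adjusted p = 0.0079), with 75.3 and 59.5 CPM in C24 x Col endosperm and 22.8 and 25 CPM in C24 x Col embryo. The sucrose synthase gene SUS1 was also in this set, with log2 differences of 4.50 in Col x Col, 2.00 in C24 x C24, 3.79 in C24 x Col and 3.46 in Col x C24 (F test adjusted p = 0.043).

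**Figure D5:**
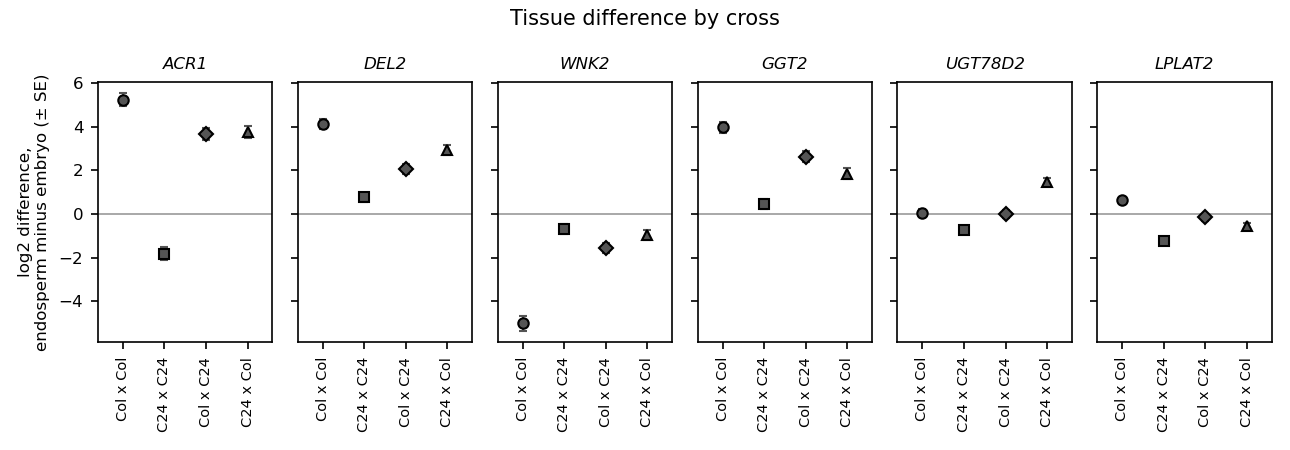
Log2 difference, endosperm minus embryo, of genes with the smallest interaction p in each of the 4 crosses. Bars on the points are approximate standard errors, from 2 libraries per tissue and cross. ACR1 is at 5.24 in Col x Col and -1.81 in C24 x C24, and WNK2 at -5.01 and -0.68.

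Between the reciprocal hybrids the tissue difference was called different for 3 genes (0.0148%), 2 (0.00988%) with a higher and 1 (0.00494%) with a lower value in Col x C24, named here after their values were seen: AT4G15390 (6.19 ± 0.68, Col x C24 minus C24 x Col on the log2 scale, adjusted p = 0.0078), AT5G48490 (3.96 ± 0.46, adjusted p = 0.0078) and the inositol phosphate synthase gene MIPS3 (-2.52 ± 0.33, adjusted p = 0.017). None was called without Col x C24 embryo replicate 1, nor without its replicate 2. Hybrids and selfed seeds differed in it for 2 genes (0.00988%), 1 in each direction (0.00494%), AT1G35612 (-4.99 ± 0.59, adjusted p = 0.033) and ACR1 (1.99 ± 0.27, adjusted p = 0.044), and for 9 with replicate number as a block; without single libraries this count was 0 to 32. At an unadjusted p under 0.05 the counts were 1220 and 1128.

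In the other 16 libraries of the series, from the CNS lines, the tissue difference was set against that of the standard crosses. By edgeR 0 of 22254 genes were called for a different tissue difference and 1433 had an unadjusted p under 0.05. DESeq2 called 9 and the fit with a replicate block 1. A count of 0 does not show that the differences are equal. Some CNS crosses had 1 library per tissue, and the 2 sets of crosses may coincide with sequencing batches. The genes with the smallest p were AGL86 (-3.46 ± 0.75, standard minus CNS crosses on the log2 scale), MYB101 (-1.21 ± 0.27), PUT4 (0.86 ± 0.20), DUR (-0.96 ± 0.23), RGXT1 (-3.03 ± 0.71) and ARI14 (-3.30 ± 0.79), each with an adjusted p of 0.432. All of these were higher in endosperm than in embryo in the standard crosses, for instance MYB101 at 26.9, 31.5 and 52.0 CPM in endosperm and 2.90, 3.97 and 6.66 CPM in embryo.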

How the data were processed

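Polyadenylated RNA of LCM endosperm and embryo, extracted by the RNAqueous Micro Kit, was made into libraries with the NEB Ultra II kit, per the labels' protocols. The authors deposited a table of raw read counts per gene for each library, and for hybrids tables of read counts per gene for each allele; the first parent is the seed parent by chloroplast allele reads (99.4% or more of its type). The submitters' processing notes name TAIR10 as build and Trimmomatic, STAR, HTSeq and edgeR as tools, with neither version nor role. The splitting of reads by allele and the strand setting of the counting are not given in the sources used here; a gene and an antisense neighbour cannot be told apart, and families of close copies (SK, LCR, PHE1 with PHE2, VIM1 with VIM5, light harvesting genes) may share reads. Summary lines that name no gene stayed out of library sizes; reads without a feature were 2.51% to 14.3% of counts.

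Counts of the 16 libraries were fitted with edgeR 4.0.16 (R 4.3.3; TMM scaling, filterByExpr at a minimum count of 10, quasi-likelihood test), with cross as a block and tissue as the term. A fit of 8 group means gave the differences within each cross and the interactions, and a fit of all 32 libraries the comparison with the CNS lines. Adjusted p is Benjamini-Hochberg over all genes tested, and called means an adjusted p under 0.05. All adjusted p-values are from these edgeR tests. Log2 differences are endosperm minus embryo, from 8 libraries per tissue in the main fit. Those within a cross rest on 2 libraries per tissue, and the comparison with the CNS lines on all 32 libraries. The standard error (SE) is approximate. It was worked back from the test, as the absolute log2 difference over the square root of the F statistic. The fits were tested on simulated data.

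Replicate numbers were checked for pairing: endosperm and embryo libraries with the same number deviated together from their group means in each of the 4 crosses (r = 0.174 in Col x Col, 0.320 in C24 x C24, 0.212 in C24 x Col and 0.107 in Col x C24, across genes). On this evidence from the data the numbers may pair the samples, but the labels do not say what a number shares. The main fits therefore leave replicate number out, and alternatives add it as a block common to all crosses. With a block for each of the 8 pairs, tried for the tissue comparison only, 16221 genes were called, and 5997 at 4-fold.

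Alternatives were RLE scaling, library totals, DESeq2 1.42.0, no filter, a minimum count of 50, nuclear genes only, a replicate block, no cross block, and leaving out each library. Genes were named by rule: the 12 largest differences each way with a symbol, at least 5 CPM and no overlap, up to 3 called genes each way per list, the 6 smallest p per interaction, and the markers; genes outside it are said to be, and some that it names are given only through the counts of their lists. The gene lists and their members were chosen with earlier results of these data known. Promoters are the 250 bases before the annotated start, read from TAIR10.1. Depth limits low genes most.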

Additional observations from a re-analysis of the deposited data

Results flagged for a closer look

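Single libraries stood apart from the other 7 of their tissue in 37 of 312 sets looked at (11.9%). Apart means a gap to the next library over 0.526 of the range. For normal values from a single population this rule flags about 1 set in 20. Most sets here are CPM values, some near 0, and each mixes 4 crosses, so that rate is no yardstick for the 11.9%. Col x Col embryo replicate 1 was the highest embryo library for 6 genes called higher in endosperm (SK9 at 0.588, SK8 at 0.457, LCR29 at 0.849, AGO3 at 1.5, CAT5 at 1.5 and MYB101 at 6.66 CPM) and for LOG3 (23.8 CPM), and it had the lowest ATML1 (134 CPM) and the highest mitochondrial share (0.504% of counts) among embryo libraries. Col x Col embryo replicate 2 was highest for PHE1 (9.56 CPM), SUS1 (11.7), CER5 (10.6), ARI4 (0.424) and TAR1 (0.424). C24 x C24 endosperm replicate 1 was highest for GSO1 (8.17 CPM), AUX1 (308), FAE1 (70.8), SWN (123), HP6 (1.13) and GNC (0.563).

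Among the other endosperm libraries, Col x C24 replicate 1 was highest for SK9 (112 CPM), SK7 (55.1) and TET9 (68.0), and replicate 2 of that cross for CKX3 (17.9). C24 x Col replicate 1 was highest for GA3OX3 (399 CPM) and DML3 (25.8). Col x Col replicate 1 was highest for SULTR3;4 (198 CPM), its replicate 2 for WOX8 (30.5) and MGP (0.375), and C24 x C24 replicate 2 for NCED4 (3.18).

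Among the other embryo libraries, Col x C24 replicate 2 was highest for DELTA-VPE (92.0 CPM) and SULTR2;1 (0.303), C24 x C24 replicate 1 for GA3OX4 (0.306) and its replicate 2 for LHCB1.1 (343). C24 x Col replicate 2 was lowest for ORC2 (6.80 CPM). The C24 x Col libraries of replicate 2 were the deepest in both tissues (29.5 M counts in endosperm and 33.9 M in embryo).

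Tissue differences that varied with the cross by a test of the difference itself were called for 113 genes over the 4 crosses, 359 between Col x Col and C24 x C24, 3 between Col x C24 and C24 x Col, and 2 between hybrids and selfed seeds. Among genes named, the F test over crosses gave adjusted p = 2.7e-05 for ACR1, 0.0012 for DEL2, 0.0014 for WNK2, 0.0016 for GGT2, 0.0079 for UGT78D2 and for LPLAT2, and 0.043 for SUS1.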

How the results depend on the processing

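The tissue comparison hardly depended on the settings tried. It called 14256 genes at a minimum count of 50 and 16837 with no filter, and 4392 to 6802 at 4-fold; without single libraries the counts were 16273 to 16529, and 6264 to 6467 at 4-fold. These exceed the counts from all libraries because a group of 1 library loosens the filter and more genes are tested (20920 to 21044). Within crosses, leaving out libraries gave 9576 to 12015 genes in Col x Col, 8832 to 11619 in C24 x C24, 9960 to 12566 in Col x C24 and 10448 to 13108 in C24 x Col. With library totals, 41.2% of the Col x Col calls were higher in endosperm, against 50.8% with TMM, and the median of all genes moved by -0.10.

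The interaction counts did depend on them; the cause was not tested. The F test called 891 genes by DESeq2, 602 with no filter and 310 with the replicate block, and 29 to 136 without single libraries. Col x Col against C24 x C24 gave 966, 692 and 777 genes under the same settings, and 105 to 372 without single libraries. Col x C24 against C24 x Col gave 51 by DESeq2 and 36 with no filter, and 0 to 11 without single libraries. Hybrids against selfed seeds gave 82 by DESeq2, 78 with no filter, 9 with the replicate block, 1 with RLE scaling or library totals, and 0 to 32 without single libraries (32 without C24 x C24 endosperm replicate 2). Standard against CNS crosses gave 9 by DESeq2, 1 with RLE scaling, 1 with the replicate block, and 0 to 1 without single libraries. The replicate block changed no other call of a named gene or list by over 1.5 times. Of the genes named, 3788 recomputed values kept their side of the threshold and their direction; CYCB1;3 fell below it with library totals (log2 0.25, adjusted p = 0.12), and LPLAT2, not called over all crosses, was called with library totals (log2 -0.43, adjusted p = 0.027) and without either Col x Col embryo replicate (-0.43 and -0.45).

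List counts were recomputed 1134 times, and 5 moved by over 1.5 times: seed coat markers higher in endosperm fell to 11 without genes at least 95% maternal, those lower were 5 without the libraries higher in seed coat markers, and at a minimum count of 50 sugar supply had 6 higher, and amino acid transport and abscisic acid 1 lower each. The median maternal share of seed coat markers was 99.7% in endosperm and 51.4% in embryo with 30 allele reads per library.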

Other observations

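Some genes with large differences lay side by side. Runs of 5 or more neighbouring tested genes, all 4-fold or more higher in endosperm, were found 29 times, and runs 4-fold or more lower 2 times. Among the longest was a run of 8 genes on chromosome 1 (18900541 to 18923319, TAIR10), which holds BSK11 and whose log2 differences ran from 5.37 to 9.30. Other runs held related genes, such as 5 methylesterase genes of the MES family (chromosome 2, 10024150 to 10036048, log2 2.37 to 4.31) and VIM4 with VIM2 (chromosome 1, 24571603 to 24592780). The lower runs were 6 genes on chromosome 3 (4863613 to 4887487) that include GGPS3, a geranylgeranyl diphosphate synthase, and 5 on chromosome 4 (15320026 to 15335630). Neighbours were taken in the order of their identifiers among tested genes; some in these runs belong to 1 family and may share reads, whose part was not tested.

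Of the genes 4-fold or more higher in endosperm 5.19% were annotated as pseudogenes and 33.8% had a gene symbol, against 0.830% and 46.2% of those 4-fold or more lower, and 2.05% and 41.2% of all genes tested. Promoters with the site II letters TGGGCC, on either strand, made up 9.12% of the 4-fold higher and 8.37% of the 4-fold lower genes, 21.6% of genes called under 4-fold, 17.1% of all, and 63.6% of the DNA replication list. The RY element CATGCATG was in 3 of 16 promoters of storage and oil genes (18.8%), in 1.67% of the 4-fold lower, 0.683% of the 4-fold higher and 0.597% of all promoters.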
